A study of Mus musculus with 6 samples.

Results

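The 9 genes described here build and anchor the nuclear lamina, the protein layer on the inner face of the nuclear envelope. They were taken by symbol: *Lbr*, *Lmna*, *Lmnb1*, *Lmnb2*, *Emd*, *Tmpo*, *Lemd2*, *Lemd3* and *Banf1*. All 9 were found among the 24564 gene symbols in every library. *Lbr* encodes the lamin B receptor, an inner nuclear membrane protein that binds B-type lamins and HP1 proteins and also acts as a sterol C14 reductase. *Lmna* encodes lamins A and C, and *Lmnb1* and *Lmnb2* encode the B-type lamins. *Emd* (emerin), *Tmpo* (LAP2), *Lemd2* and *Lemd3* (MAN1) encode LEM-domain proteins, and *Banf1* encodes the small DNA-bridging protein that LEM domains bind. In most nuclei LBR or lamin A/C tethers heterochromatin to the nuclear periphery. Olfactory sensory neurons (OSNs) are known to lose LBR as they differentiate, and to gather their silent olfactory receptor (OR) genes into foci in the nuclear interior.

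The data were droplet single-cell RNA counts of the main olfactory epithelium from 6 mouse libraries. Swap replicates 1 and 2 carried the Cbx*/* allele and a Cre recombinase that the study describes as neuron-specific. Recombination replaces *Cbx1* (HP1β) with *Cbx5* (HP1α) under the *Cbx1* promoter, and here *Cbx1* was also lost in sustentacular cells. Control replicate 1 was labelled WT with the same Cre, and control replicate 2 was labelled Cbx*/* with no Cre named, so the controls differed in genotype from each other. The gg8tTA library carried gg8-tTA, an OSN driver, and the tetOP2 library carried gg8-tTA with tetOP2iresGFP, which forces expression of the P2 receptor. Ages were not given in the labels. The deposited text describes sorted populations, yet basal, supporting and blood cells were present in every library. The libraries held between 32005196 and 63277934 unique molecular identifiers (UMIs, counted RNA molecules) and between 2563 and 5091 kept cells. *Xist* reached between 1274 and 1468 CPM (UMIs scaled to a total of 1000000) in swap 1, gg8tTA and tetOP2 and between 0.293 and 0.584 in the other 3 libraries, so swap 1 differed in sex genes from the libraries it is compared with.

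Cells were gated by markers into the stages of the neuron lineage and into supporting, stromal and blood classes, and each class is named after the markers it carried. None of the 9 genes was a marker. The stages were horizontal basal cells (HBCs, reserve stem cells), globose basal cells (GBCs, dividing progenitors), immediate neuronal precursors (INPs), early and late immature OSNs (iOSNs) and mature OSNs (mOSNs). Sustentacular cells, the glia-like supporting cells, served as a comparison outside the lineage. The gate held between 636 and 1278 mOSNs per library but only between 19 and 63 GBCs. From GBCs on, the stage medians ran in order by a readout that the gates did not use. Summed OR transcripts had a median of 39.1 CPM in GBCs, 94.5 in INPs, 2109 in early iOSNs, 4446 in late iOSNs and 8049 in mOSNs. The ranges of GBCs (23.4 to 150) and INPs (47.6 to 574) overlapped. HBCs did not follow this order, with a median of 140 (92.0 to 266) above those of GBCs and INPs. Levels are in CPM of the summed cells of a class in a library. A gene was called in a comparison at an adjusted p under 0.05 (edgeR quasi-likelihood test, Benjamini-Hochberg over all genes tested) with a log2 fold change beyond 0.58 in either direction.

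Sequences upstream of annotated starts were read for *Lbr* and *Tmpo*, both called lower from INPs to early iOSNs and higher in cycling INPs. They were also read for *Lmna*, called in neither comparison with all libraries in the fit. RefSeq promoters (GRCm38.p6) were read for 7 of the 9 genes, with 11 promoters in all. *Lmnb1*, called in the same comparisons as *Lbr* and *Tmpo*, was not among them, and neither was *Lemd2*. Each run below holds the 250 bases before a start, 5′ to 3′ on the gene's strand. The *Lbr* run directly borders the annotated gene (chr1:181815315-181842401). The *Tmpo* runs lie inside the annotated gene (chr10:91147571-91181752), and so do the *Lmna* runs (chr3:88481148-88509932). They precede internal starts and not the 5′ end of the annotated gene, so their motifs are not compared like for like with those of *Lbr*. Capitals mark matches on either strand to CCAAT (the CCAAT box), TTTGAA (the cell cycle homology region), GCGGGAA (an E2F motif) and GGGCGG (the GC box).
*Lbr*, chr1:181842402-181842651, minus strand: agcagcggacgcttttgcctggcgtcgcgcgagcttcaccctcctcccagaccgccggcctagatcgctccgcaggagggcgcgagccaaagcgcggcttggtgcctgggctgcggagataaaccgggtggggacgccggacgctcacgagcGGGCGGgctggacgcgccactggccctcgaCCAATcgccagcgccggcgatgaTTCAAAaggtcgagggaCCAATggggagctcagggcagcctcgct
*Tmpo*, first listed start, chr10:91170551-91170800, minus strand: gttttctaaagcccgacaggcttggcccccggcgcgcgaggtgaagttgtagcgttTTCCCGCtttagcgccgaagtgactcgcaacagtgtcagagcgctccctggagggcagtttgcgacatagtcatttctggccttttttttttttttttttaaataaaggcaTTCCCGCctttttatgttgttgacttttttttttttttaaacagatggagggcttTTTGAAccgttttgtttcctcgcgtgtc
*Tmpo*, second listed start, chr10:91171620-91171869, minus strand: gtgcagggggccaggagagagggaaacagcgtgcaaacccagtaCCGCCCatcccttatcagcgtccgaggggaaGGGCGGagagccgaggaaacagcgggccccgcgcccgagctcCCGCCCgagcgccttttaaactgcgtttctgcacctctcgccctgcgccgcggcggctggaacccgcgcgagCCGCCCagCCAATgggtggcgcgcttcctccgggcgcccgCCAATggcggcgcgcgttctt
*Lmna*, first listed start, chr3:88493313-88493562, minus strand: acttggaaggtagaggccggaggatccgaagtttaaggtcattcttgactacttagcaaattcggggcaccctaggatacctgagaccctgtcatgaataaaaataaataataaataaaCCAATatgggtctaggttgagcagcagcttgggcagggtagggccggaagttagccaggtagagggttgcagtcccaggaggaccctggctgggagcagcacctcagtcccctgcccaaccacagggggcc
*Lmna*, second listed start, chr3:88503353-88503602, minus strand: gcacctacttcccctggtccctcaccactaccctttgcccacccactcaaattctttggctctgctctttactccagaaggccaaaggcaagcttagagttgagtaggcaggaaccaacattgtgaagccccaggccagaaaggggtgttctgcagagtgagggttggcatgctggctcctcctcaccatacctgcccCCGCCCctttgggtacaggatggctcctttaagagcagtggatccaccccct
The *Lbr* promoter held 2 CCAAT matches, at 68 and 28 bases before the start (positions -68 and -28). It also held 1 TTTGAA match at -45 and 1 GGGCGG match at -98. The second *Tmpo* promoter held 2 CCAAT matches, at -53 and -21, and 4 GGGCGG matches. The first held 1 TTTGAA match at -28 and 2 GCGGGAA matches at -194 and -83. The first *Lmna* run held 1 CCAAT match, at -131, and the second 1 GGGCGG match, at -52. *Emd*, *Lemd3* and 1 of the 2 *Banf1* promoters also held 1 CCAAT match each, so that motif did not set *Lbr* and *Tmpo* apart. Nor was GCGGGAA particular to *Tmpo*, with matches in *Lemd3* (-147) and in the same *Banf1* promoter (-80). GGGCGG also occurred in *Emd*, *Lemd3*, both *Banf1* promoters and an *Lmnb2* promoter. Over 32817 promoters of the same 250 bases searched, CCAAT occurred in 33.8%, TTTGAA in 16%, GCGGGAA in 3.82% and GGGCGG in 32.7%. These matches describe letters and were not tested as binding sites.

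The median level of *Lbr* was lower at each later stage from GBCs on, and only the step from INPs to early iOSNs passed the fold limit. In GBCs it stood at 64.8 CPM in control 1, 96.2 in control 2, 70.2 in swap 1, 92.1 in swap 2, 55.0 in gg8tTA and 55.8 in tetOP2. In INPs the same libraries gave 40.9, 76.1, 57.9, 77.3, 50.7 and 39.1 CPM. Early iOSNs of the same libraries gave 18.7, 25.8, 21.1, 25.3, 17.5 and 13.3 CPM. Every early iOSN value lay below every INP value. In mOSNs the levels were 10.7, 18.1, 13.7, 14.5, 10.1 and 10.4 CPM, and no GBC value came near them. The ratio of GBCs to mOSNs lay between 5.13 and 6.34 in the 6 libraries, and that of INPs to early iOSNs between 2.19 and 3.06. The counting error was modest, since the 149 UMIs of control 1 mOSNs give an exact Poisson 95% interval of 9.02 to 12.5, and the 37 UMIs of the 19 swap 2 GBCs give 64.8 to 127. Spread between animals is not part of these intervals. As a measure of free RNA, the 9 mOSN markers summed to between 31.4 and 310 CPM in HBCs, against between 12293 and 25097 in mOSNs. The 6 sustentacular markers were high in HBCs, with a median of 5773 (3284 to 6370), near the 5853 of the 5 HBC markers. Their medians in the later stages lay between 79.7 and 193. The 6 erythroid markers, of the class richest in *Lbr*, summed to between 1.46 and 13.8 in GBCs. The part of such transcripts in the *Lbr* levels, and in the HBC levels of the other members, was not tested.

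From INPs to early iOSNs *Lbr* fell by 1.57 on the log2 scale (SE 0.10, adjusted p = 2.19e-13, edgeR). From GBCs to mOSNs it fell by 2.39 (SE 0.096, adjusted p = 6.3e-19, edgeR). The neighbouring steps did not reach the fold limit, though 3 of them had an adjusted p under 0.05. GBCs exceeded HBCs by 0.44 (adjusted p = 0.000419, edgeR), INPs differed from GBCs by -0.31 (adjusted p = 0.00968), and late from early iOSNs by -0.47 (adjusted p = 0.00227). The last step, from late iOSNs to mOSNs, measured -0.04 with a 95% interval of -0.23 to 0.16. HBC levels were between 34.5 and 57.4 CPM. The step from HBCs to GBCs passed the fold limit with stricter gates (0.61) and without GBCs that held gland transcripts (0.60), which are described with *Lmna*.

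*Lmna* was highest in HBCs among the stages and fell on entry to the neuron lineage. HBCs held 272, 178, 251, 244, 260 and 300 CPM in control 1, control 2, swap 1, swap 2, gg8tTA and tetOP2. In mOSNs the values were 32.2, 19.6, 30.8, 21.6, 36.1 and 29.8, with no overlap. GBCs were uneven: 81.6 in control 1 and 141 in swap 1, but 22.6 in control 2, 39.8 in swap 2, 19.3 in gg8tTA and 21.1 in tetOP2. The uneven libraries also held, in that gate, transcripts of mainly secretory genes, called gland transcripts here. None of these genes was a Bowman gland marker of the gates. *Ltf* was a marker of the neutrophil lineage and *Stmn2* of late iOSNs, and the identity of these cells was not tested. The summed level of *Ltf*, *Car6*, *Wfdc18*, *Pglyrp1* (secretory genes) and *Stmn2* (a neuronal gene) in GBCs was 10364 CPM in control 1, 12666 in swap 1, 6026 in control 2, 1435 in gg8tTA, 82.9 in tetOP2 and 39.8 in swap 2. Leaving out the 8 control 1, 7 swap 1, 1 control 2 and 2 gg8tTA cells with 10 or more of these UMIs brought *Lmna* to 52.3 in control 1, 29.6 in swap 1 and 11.5 in gg8tTA. These genes were picked from *Lmna*-rich cells of the gate, so the lower *Lmna* level is in part a product of that choice.

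From HBCs to GBCs *Lmna* fell by 2.35 on the log2 scale (SE 0.29, adjusted p = 7.02e-08, edgeR). From GBCs to mOSNs it fell by 0.97 (adjusted p = 0.00374, edgeR), but this call rested on few cells. Without swap 1 it was -0.28 and without both swap libraries -0.18, and the call was lost in both. Without the cells holding gland transcripts it was 0.080, a value that the choice of those cells fixes in part. The steps from INPs on measured 0.09, 0.07 and -0.38, none of them called. In INPs *Lmna* lay between 18.6 and 48.7 CPM, in early iOSNs between 24.7 and 56.1, and in late iOSNs between 28.5 and 52.4, so these stages overlapped throughout.

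*Lmnb1* rose from HBCs to GBCs and then fell at nearly every step. GBCs held 293, 468, 317, 438, 275 and 292 CPM in control 1, control 2, swap 1, swap 2, gg8tTA and tetOP2. INPs held 88.0, 155, 154, 155, 114 and 121 CPM in the same order. In mOSNs *Lmnb1* was down to 14, 20.2, 25.7, 18.6, 12.7 and 14 CPM. None of these stage ranges overlapped. The rise from HBCs was 2.43 on the log2 scale (adjusted p = 3.16e-12, edgeR). *Lmnb1* then fell by 1.33 into INPs, fell by 1.32 into early iOSNs and fell by 0.98 into mOSNs (SE 0.17 at each step), and the step between early and late iOSNs measured -0.57 (adjusted p = 0.0165), just inside the fold limit. From GBCs to mOSNs *Lmnb1* fell by 4.20 (SE 0.17, adjusted p = 2.04e-18, edgeR).

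*Lmnb2* peaked later. It rose by 1.23 from HBCs to GBCs (adjusted p = 1.18e-06, edgeR) and by 0.62 from GBCs to INPs (adjusted p = 0.00137). INPs held 36.4, 40.3, 36.6, 25.4, 41.8 and 52.0 CPM, and mOSNs 12.2, 12.6, 13.0, 13.1, 19.0 and 19.8. No mOSN value reached an INP value. The second rise was small: it measured 0.53 in DESeq2 and 0.43 without gland transcripts, inside the fold limit in both. Its call was lost under several further choices, among them stricter gates (0.51) and without control 2 (0.40). From GBCs to mOSNs *Lmnb2* fell by 0.73 (adjusted p = 7.69e-05, edgeR). That call was lost with no expression filter (-0.56), with swap and control libraries only (-0.43) and without gg8tTA (-0.50).

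Among the LEM-domain genes, *Tmpo* was called at the same step as *Lbr*. GBCs held 341, 531, 342, 525, 332 and 402 CPM of *Tmpo* in control 1, control 2, swap 1, swap 2, gg8tTA and tetOP2, and mOSNs held 102, 137, 109, 131, 110 and 102. All mOSN values lay below all GBC values. *Tmpo* rose by 1.29 into GBCs (adjusted p = 6.3e-14, edgeR), fell by 0.88 from INPs to early iOSNs (SE 0.073, adjusted p = 5.26e-11) and fell by 1.71 from GBCs to mOSNs (adjusted p = 7.47e-18).

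*Emd* had another course, with its highest median in early iOSNs, at 112, 121, 109, 86.2, 123 and 124 CPM, and its lowest among the stages in mOSNs, at 42.2, 36.9, 41.4, 34.2, 54.0 and 54.1. It fell by 0.74 from late iOSNs to mOSNs (SE 0.086, adjusted p = 3.04e-08, edgeR) and by 0.86 from GBCs to mOSNs (adjusted p = 7.71e-09). *Emd* lies on the X chromosome (GRCm38.p6, chrX:74254674-74261563). In mOSNs swap 1, the *Xist*-positive library among the swap and control samples, fell within the range of the other 3. The gg8tTA and tetOP2 libraries, also *Xist*-positive, were the highest for *Emd* in GBCs (106 and 121), INPs (116 and 119), early iOSNs and mOSNs. They are of another mouse line, so line and sex genes cannot be told apart there.

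*Lemd2* and *Lemd3* were not called lower from GBCs to mOSNs. *Lemd2* lay between 19.5 and 34.7 CPM in GBCs and between 24.0 and 41.8 in mOSNs, a difference of 0.46 (adjusted p = 0.00551, edgeR) that stayed inside the fold limit. *Lemd2* was called higher with no expression filter (0.63), with swap and control libraries only (0.63) and without tetOP2 (0.66). It fell by 0.61 from HBCs to GBCs (adjusted p = 0.00164). That call was lost under several other choices, among them stricter gates (-0.38), no library term (-0.52) and no swap libraries (-0.57). *Lemd3* lay between 6.88 and 19.0 CPM in GBCs and between 11.1 and 27.5 in mOSNs, a difference of 0.58 that lay at the fold limit (adjusted p = 0.00803). Several other choices called *Lemd3* higher, among them no expression filter (0.75), stricter gates (0.78) and no swap libraries (0.84). In each of these 7 classes the gg8tTA and tetOP2 libraries were the lowest for *Lemd3*. *Banf1* rose by 0.95 into GBCs (adjusted p = 8.81e-10, edgeR) and fell by 0.97 from GBCs to mOSNs (adjusted p = 5.9e-11), where it stood between 110 and 137 CPM against 219 to 348 in GBCs.

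**Figure D1:**
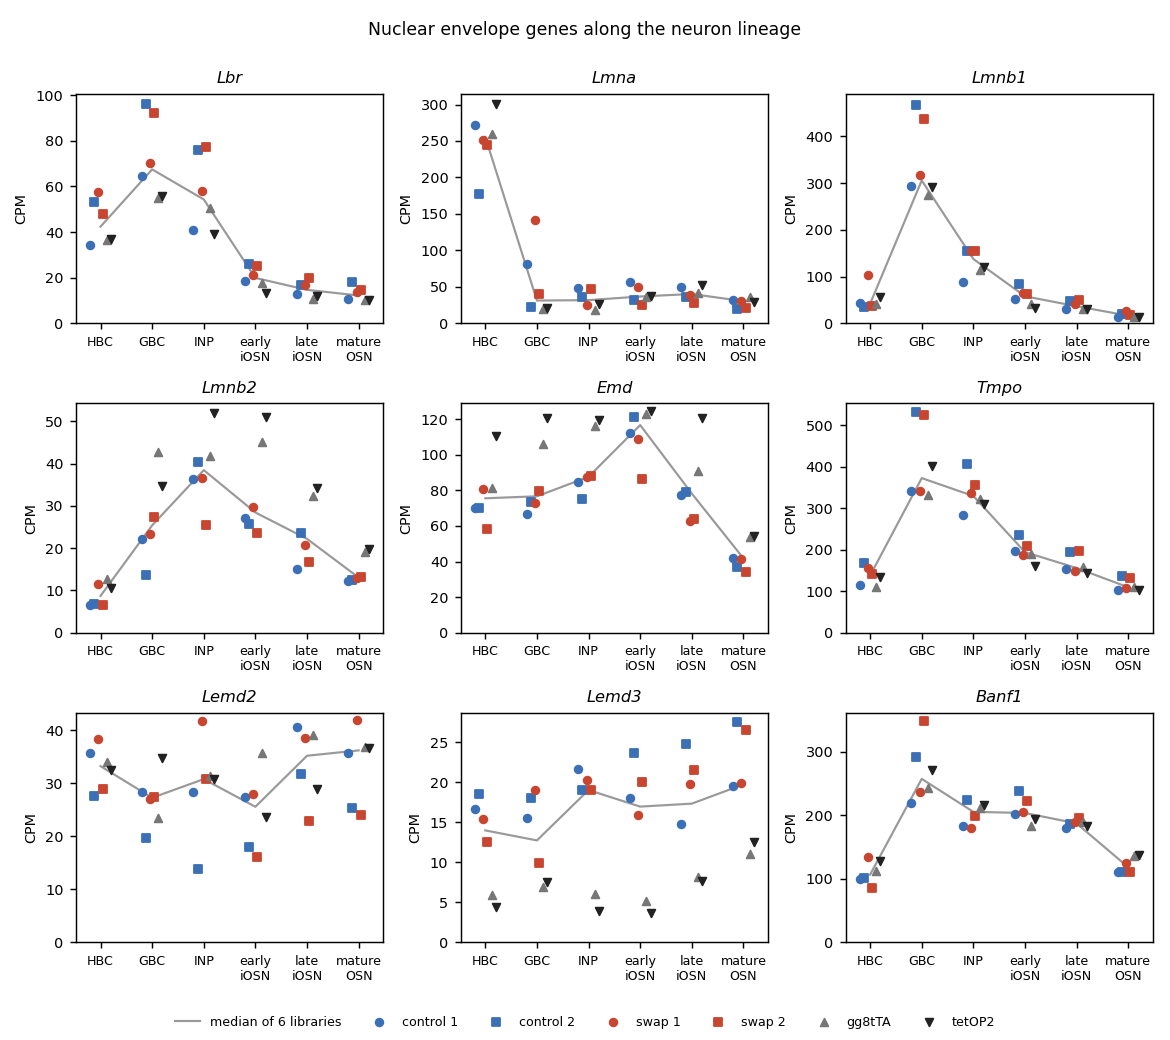
Levels of the 9 genes (y axis, CPM, from 0) in 6 stages from horizontal basal cells (HBC) through globose basal cells (GBC), immediate neuronal precursors (INP) and immature OSNs (iOSN) to mature OSNs, 1 point per library, with the line at the median of 6 libraries. *Lbr* and *Tmpo* drop between INP and early iOSN, *Lmna* is high in HBC, and the 2 raised *Lmna* points in GBC are control 1 at 81.6 and swap 1 at 141.

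The members' counts are read against those of all genes, since most steps moved many. From GBCs to mOSNs 7 of the 9 members were called lower and 0 higher, where 67.2% of all 12144 genes tested were called, 35.2% higher and 32% lower. Under other processing choices between 6 and 9 members were called, and several choices called *Lemd3* or *Lemd2* higher. The members' median log2 change was -0.97, against 0.09 for all genes. Between HBCs and GBCs 4 members rose and 2 fell, against 45.4% of all genes called, 20.9% higher and 24.5% lower. Between GBCs and INPs 1 rose and 1 fell (39%, with 20.4% higher and 18.6% lower). From INPs to early iOSNs 3 fell and 0 rose (39%, with 20.5% higher and 18.5% lower). From early to late iOSNs 0 were called (14.3%), although 6 had an unadjusted p under 0.05, and DESeq2 also called 0. From late iOSNs to mOSNs 2 fell (30.7%, with 17% higher and 13.7% lower).

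Cell division ran alongside these levels. Between 74.1% and 94.7% of GBCs held at least 3 UMIs of 9 cell cycle genes, against between 0.485% and 1.23% of mOSNs, and *Mki67* and *Top2a* were 2 of the 7 GBC markers. Too few GBCs lay outside the cycle to compare them. INPs could be split: between 37 and 67 cells per library were cycling and between 29 and 166 were not. *Lbr* in cycling INPs was 60.8, 100.4, 81.6, 80.5, 68.9 and 50.6 CPM in control 1, control 2, swap 1, swap 2, gg8tTA and tetOP2. In the other INPs it was 27.8, 46.9, 14.4, 70.0, 22.7 and 23.1. The cycling cells were higher in 6 of 6 libraries, with the smallest gap in swap 2. *Lmnb1* was at 197, 280, 229, 217, 182 and 195 in cycling INPs and at 16.3, 3.35, 17.3, 10.5, 9.47 and 16.9 in the others, without overlap.

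Between cycling and other INPs 4 of 9 members were called, all higher in cycling cells, where 28.6% of 6659 genes were called, 13.9% higher and 14.7% lower. *Lmnb1* rose by 4.04 on the log2 scale (SE 0.24, adjusted p = 1.22e-17, edgeR), *Tmpo* by 1.52 (SE 0.085, adjusted p = 2.31e-15), *Lbr* by 1.18 (SE 0.19, adjusted p = 3.6e-06) and *Banf1* by 0.63 (SE 0.086, adjusted p = 3.93e-07). The others were not called, with *Lmna* at -0.38 (95% interval -0.84 to 0.08) and *Lmnb2* at 0.15 (-0.20 to 0.50). Without control 1, *Lmna* was called lower in cycling cells (-0.78). Cycling INPs also held more RNA, a mean of between 14264 and 19379 UMIs per cell against between 8681 and 11934 in the others, and the part of this difference in the levels was not tested.

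**Figure D2:**
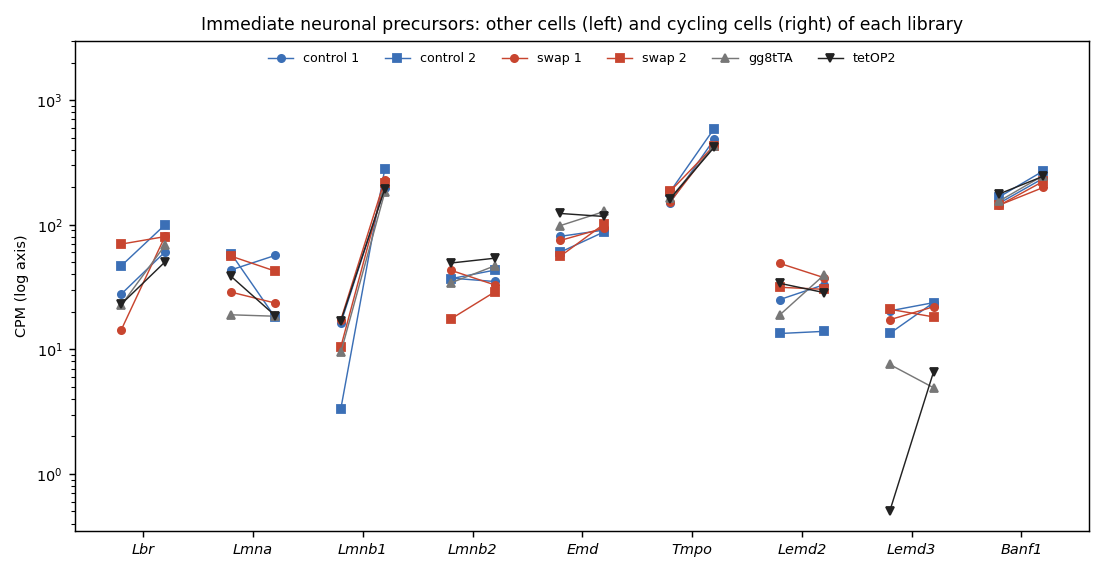
Levels (y axis, CPM, log axis) of the 9 genes in immediate neuronal precursors outside the cycle (left end of each line) and cycling (right end), 1 line per library; the value of 0 for *Lemd3* in tetOP2 is drawn at 0.5. *Lmnb1* climbs in every library, from between 3.35 and 17.3 to between 182 and 280.

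With cells outside the cycle alone, the step from INPs to early iOSNs split the members. *Lbr* still fell in the fit, by 0.98 on the log2 scale (adjusted p = 2.58e-05, edgeR), less than the 1.57 with all cells. INPs outside the cycle held only 41, 28, 5, 20, 12 and 15 *Lbr* UMIs in control 1, control 2, swap 1, swap 2, gg8tTA and tetOP2. In swap 1 they stood at 14.4 CPM, below the 21.1 of all swap 1 early iOSNs. In each other library they stood above the early iOSNs. *Lmnb1* turned, with a rise of 1.70 (adjusted p = 3.54e-07, edgeR). Early iOSNs outside the cycle held 46.2, 38.7, 63.3, 62.8, 37.9 and 33.8 CPM in control 1, control 2, swap 1, swap 2, gg8tTA and tetOP2, above every INP value outside the cycle. Those INPs held only 24, 2, 6, 3, 5 and 11 *Lmnb1* UMIs in the same order, so their levels are imprecise. They were also kept for holding few UMIs of the 9 cell cycle genes. *Tmpo* no longer differed by the test (0.11, adjusted p = 0.27). The fall of *Lmnb1* from late iOSNs to mOSNs remained at 1.06 in these cells (adjusted p = 9.47e-08).

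Across 17 cell classes with at least 20 cells in 2 or more libraries, mOSNs had the lowest median *Lbr* level. Their range (10.1 to 18.1 CPM) overlapped those of late and early iOSNs and of microvillar and Bowman gland cells. It also overlapped those of fibroblasts, respiratory ciliated cells and ensheathing glia. Its median was 423 CPM in erythroid cells (319 to 711 over 6 libraries), 241 in the neutrophil lineage, 194 in the B lineage, 67.3 in endothelial or mural cells, 64.8 in GBCs, 54.3 in INPs, 46.7 in sustentacular cells, 42.4 in HBCs, 36.0 in ensheathing glia and 30.7 in macrophages. Below these stood respiratory ciliated cells (26.1), fibroblasts (21.7), Bowman gland cells (20.4), early iOSNs (19.9), microvillar cells (19.2), late iOSNs (14.7) and mOSNs (12.2). Only the step from erythroid cells to the neutrophil lineage and that from the B lineage to endothelial cells separated neighbours without overlap. The erythroid cells were mostly in the cycle, from 85.8% to all cells of a library.

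*Lmna* had a different order. Its medians were 472 CPM in endothelial or mural cells, 454 in fibroblasts, 412 in erythroid cells, 255 in HBCs, 196 in ensheathing glia, 173 in respiratory ciliated cells, 113 in macrophages, 84.1 in Bowman gland cells, 60.9 in microvillar cells and 47.7 in sustentacular cells. Late iOSNs (40.2), early iOSNs (36.7), INPs (31.7), mOSNs (30.3) and GBCs (22.6) followed, and the B lineage (9.37) and the neutrophil lineage (3.99) were lowest. Only GBCs and the B lineage were neighbours without overlap. The B and neutrophil lineages thus combined high *Lbr* with low *Lmna*, and fibroblasts the reverse, while erythroid cells were high for both and mOSNs low for both.

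**Figure D3:**
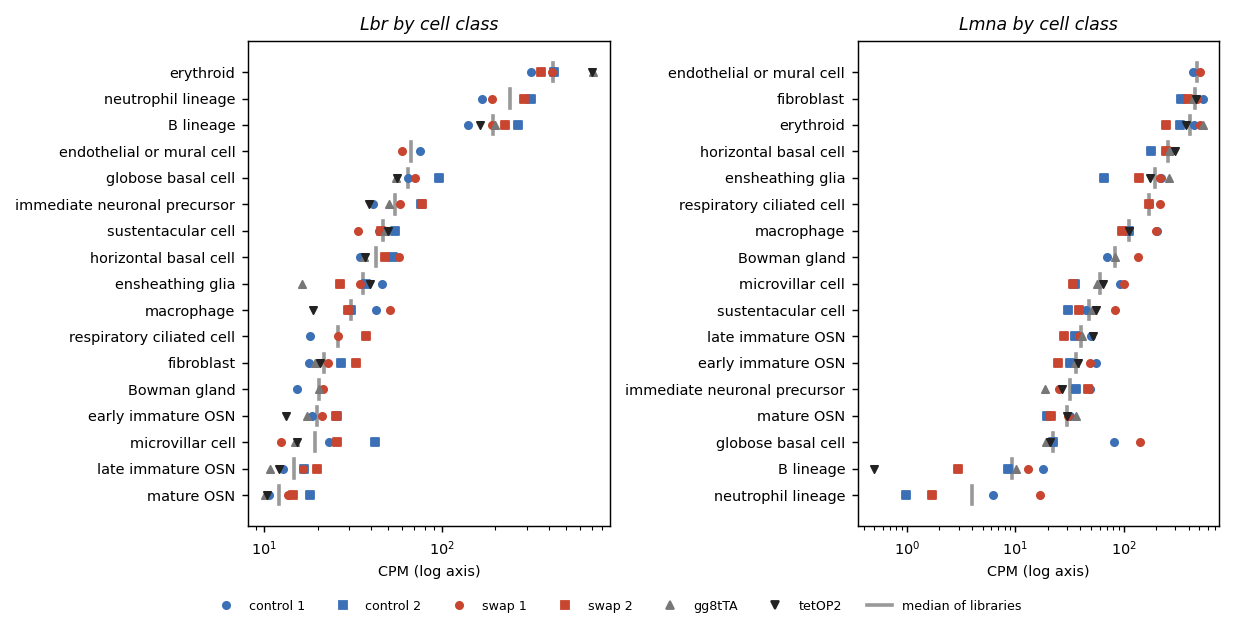
*Lbr* (left) and *Lmna* (right) in 17 cell classes ordered by their median, in CPM on a log axis, with 1 point per library of at least 20 cells and a grey bar at the median; a value of 0 for *Lmna* in the B lineage of tetOP2 is drawn at 0.5. Mature OSNs are last for *Lbr* (median 12.2) and the neutrophil lineage is last for *Lmna* (3.99).

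Of the other members, *Lmnb1* was highest in the B lineage (median 405 CPM), the neutrophil lineage (374) and GBCs (293). *Tmpo* led in erythroid cells (530) ahead of GBCs (342) and INPs (329). *Lmnb2* was highest in INPs (38.5) and early iOSNs (28.4), and *Emd* in early iOSNs (117). *Banf1* was near 252 in the B lineage, 244 in GBCs and 244 in erythroid cells, with overlapping ranges.

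Against sustentacular cells, mOSNs were lower for 4 members and higher for 1, where 66.8% of 13159 genes were called, 31% lower and 35.8% higher. Sustentacular cells held 44.5, 54.6, 33.9, 45.6, 47.7 and 49.9 CPM of *Lbr* in control 1, control 2, swap 1, swap 2, gg8tTA and tetOP2, and no mOSN value reached these. mOSNs were lower by -1.72 on the log2 scale for *Lbr* (adjusted p = 4.81e-16, edgeR), -1.34 for *Lmnb1*, -0.68 for *Lmna* and -0.60 for *Tmpo*, and higher by 0.91 for *Lemd3*. In this comparison the median of all genes moved by -0.15 between the TMM scaling and DESeq2 size factors, from 0.12 to -0.03. *Lmna* and *Tmpo* were no longer called when cells of several gates were kept (-0.54 and -0.57).

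The neurons were also compared by zone. *Nqo1* marks OSNs of the dorsal epithelium, and mOSNs with and without an *Nqo1* UMI were summed in each library. None of the 9 members was called, where 3.62% of 10871 genes were. Only *Tmpo* had an unadjusted p under 0.05, at 0.12 (adjusted p = 0.0549, edgeR), and DESeq2 called 0 members. *Lbr* differed by -0.10 with a 95% interval of -0.41 to 0.21.

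The swap itself was plain in *Cbx1*. Control mOSNs held 82.1 and 155 CPM of *Cbx1* and swap mOSNs 1.03 and 3.19, and the fitted difference was between -6.11 and -4.24 on the log2 scale in the 7 classes. The loss was not confined to neurons. Sustentacular cells had a mean of 50.7 CPM in control and 1.06 in swap, and HBCs 62.6 and 1.02, so sustentacular cells were not an unswapped class. The *Cbx1* call passed in 5 classes, with adjusted p = 0.113 in mOSNs and 0.351 in GBCs (edgeR). *Cbx5* stood at 20.5 and 29.4 in control mOSNs and at 77.6 and 89.1 in swap mOSNs.

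No change of the 9 members with the swap was detected in any of the 7 classes. *Lbr* in mOSNs was 10.7 and 18.1 CPM in the controls and 13.7 and 14.5 in the swap libraries, which lay between them. The fitted difference was -0.05 on the log2 scale with a 95% interval of -0.92 to 0.82. In early iOSNs it was 0.05 (-0.67 to 0.77), in INPs 0.26 (-0.46 to 0.99) and in GBCs 0.09 (-0.63 to 0.81). Cycling cells made up 28.8% and 42.5% of INPs in control 1 and control 2, against 50% and 60.3% in swap 1 and swap 2. The part of that imbalance in the INP value was not tested. The intervals still contain changes of up to about the size of the fold limit and beyond, so they do not show that *Lbr* was equal. The share of all genes called was 0% in mOSNs, 0.13% in late iOSNs, 0.0303% in early iOSNs, 0.0356% in INPs, 0% in GBCs, 0.0208% in HBCs and 0.016% in sustentacular cells. For the members, 0 were called by edgeR or DESeq2 in any class, and none had an unadjusted p under 0.05.

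The 3 largest fitted values of the members had their highest level in swap 1. *Lmna* in GBCs measured 0.85 (-0.91 to 2.61), with swap values of 141 and 39.8 CPM interleaved with control values of 81.6 and 22.6. Without the cells holding gland transcripts, a choice that lowers *Lmna*, it was -0.18. *Lmnb1* in HBCs measured 0.83 (-0.33 to 1.99), with 103 in swap 1 but 36.9 in swap 2, against 42.8 and 35.1 in the controls; 18.2% of swap 1 HBCs were in the cycle, against between 2.99% and 7.10% in the other 3. *Lmna* in sustentacular cells measured 0.76 (-0.25 to 1.76), at 84.0 and 38.5 against 44.5 and 30.5. The change of *Lbr* from GBCs to mOSNs did not differ detectably between swap and control (-0.13, interval -0.87 to 0.61), and 0 members were called for that difference, where 0.0598% of genes were. None of these 9 had an unadjusted p under 0.05, and DESeq2 called 0.

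**Figure D4:**
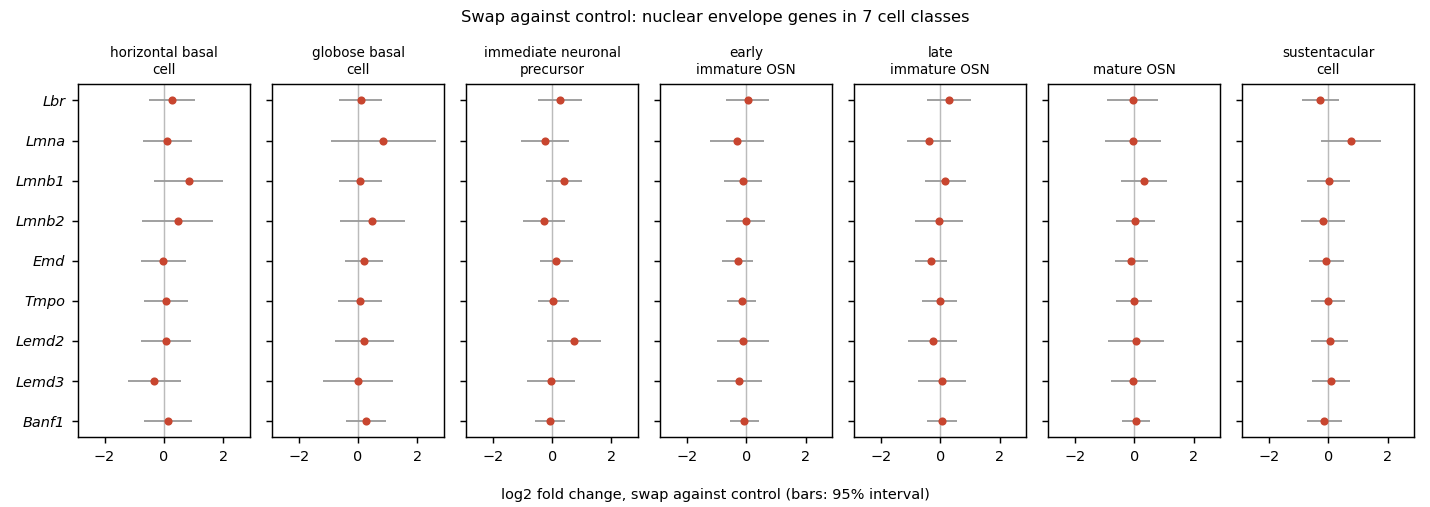
Fitted log2 fold change of swap against control (x axis) for the 9 genes in 7 cell classes, with bars for the 95% interval over 2 swap and 2 control libraries. All 63 intervals include 0, and the widest belongs to *Lmna* in globose basal cells (-0.91 to 2.61).

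The wider nuclear envelope was read through lists of partners. From GBCs to mOSNs 21 of 28 nuclear pore genes fell and 0 rose (median -0.91), where 32% of all genes were called lower and 35.2% higher. The pore genes were led by *Nup43* (-2.75) and *Nup62* (-2.49). Of 12 inner membrane and lamina partners 6 fell and 0 rose (median -0.60, against the same 32% of all genes), led by *Ankle1*, a LEM-domain nuclease (-6.14), and *Tmem194* (-2.04). The LINC complex, which joins the envelope to the cytoskeleton, was divided: *Sun1* rose by 2.24 (SE 0.14, adjusted p = 4.34e-15, edgeR), while *Sun2* (-2.83) and *Syne4* (-3.79) fell, of 4 genes tested. Among 5 lamin processing genes *Zmpste24*, the prelamin A protease, rose by 0.99 and *Fntb*, a farnesyltransferase subunit, fell by 1.77.

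Sterol synthesis, the pathway of the LBR reductase, gave 3 genes higher and 1 lower of 14 (median 0.09, and 0.09 for all genes). The shares of all genes called were larger, at 35.2% higher and 32% lower. *Ebp*, a late enzyme of the pathway, rose by 1.80, and *Tm7sf2*, the other sterol C14 reductase, fell by 2.24 (SE 0.30, adjusted p = 9.31e-08, edgeR). All 16 cell cycle genes fell (median -6.03), where 32% of all genes were called lower, led by *Cdk1* and *Top2a* (both -6.81). *Top2a* and *Mki67* were GBC markers, so the gate in part fixed their fall.

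These partners moved at several steps. From HBCs to GBCs 17 of 28 pore genes rose (20.9% of all genes), with *Nup210* at 3.76, and *Zmpste24* and *Fnta* fell (-0.79 and -0.81). From INPs to early iOSNs 13 of 28 pore genes fell (18.5% of all genes), with *Nup93* at -1.36, and 7 of 14 sterol genes rose (20.5%), with *Cyp51* at 1.11. At the last step, into mOSNs, 9 of 14 sterol genes fell (13.7% of all genes), with *Hmgcs1* at -1.51 and *Tm7sf2* at -1.50, while *Sun1* rose by 1.05. In cycling against other INPs 10 of 26 pore genes rose (13.9% of all genes), led by *Nup133* (1.49), and all 16 cell cycle genes did, 9 of which had defined the split. With the swap 0 genes of any list were called in any of the 7 classes.

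**Figure D5:**
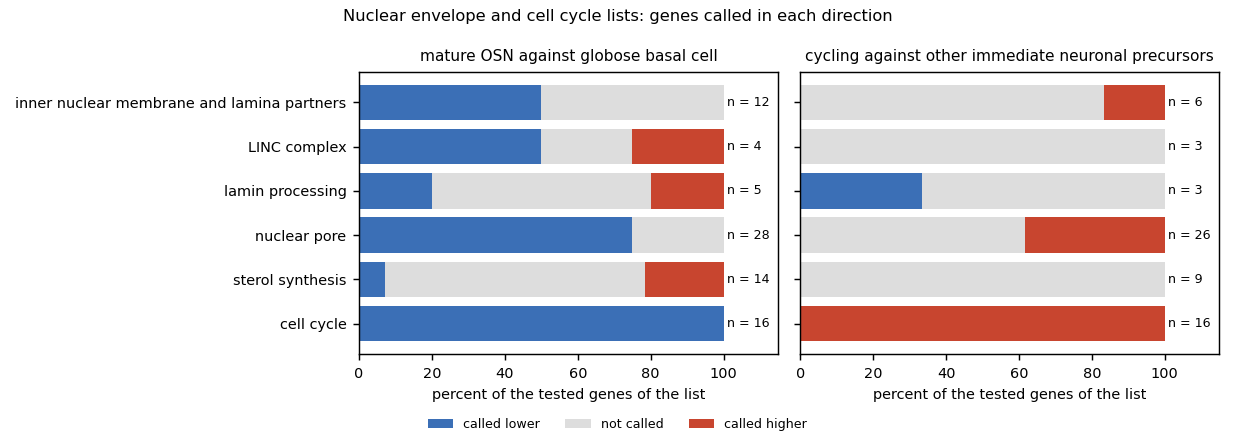
Share of the tested genes of 6 lists (x axis, percent, from 0) called lower, not called and called higher, for mature OSNs against globose basal cells (left) and cycling against other immediate neuronal precursors (right), with n the genes tested. Nuclear pore genes are called in 1 direction on each side, 21 of 28 lower and 10 of 26 higher, and the cell cycle list is called whole.

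The genes whose level ran most like *Lbr* over the 35 sums per library and stage were *Acsl3* (Pearson r 0.954 of log2 CPM), *Smad5* (0.954), *Clspn* (0.943), *Cdc26* (0.935) and *Mcm4* (0.934), among 12144 genes. Those most like *Lmna* were *Rnase4* (0.941), *Ablim3* (0.930), *Lgals7* (0.929), *Sema4a* (0.928) and *Ces2g* (0.923). Between *Lbr* and *Lmna* r was 0.26. The sums share libraries and depth, so these values only describe the stages.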

How the data were processed

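The authors dissociated main olfactory epithelium with papain, made droplet libraries and counted reads with Cell Ranger, introns included, on mm10. The matrix headers of the swap and control libraries name version 3.1.0. The deposited values are raw UMI counts per gene and cell. A part of the genotype labels and a gene of the lists are not reported here.

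A cell entered with 1000 or more UMIs and 500 or more genes. A class needed 3 of its markers, with added conditions on markers for the neuron stages, which were set after marker levels were seen. Cells passing several gates were left out, which also removes many doublets; no doublet caller was run. Between 0 and 20 barcodes were shared by a pair of libraries. Counts were summed per library and class (at least 20 cells in the fits along the lineage, which left out the 19 swap 2 GBCs; the swap comparison kept them). edgeR 4.0.16 (quasi-likelihood, TMM, filterByExpr; R 4.3.3) was fitted with stage and library as terms over 35 sums, or with group over 2 swap and 2 control libraries. The comparison of mOSNs with sustentacular cells came from a separate fit of the stages with that class added, over 13159 genes. Libraries are the replicates. The study's methods call the 2 libraries of a group biological replicates, while the labels do not name the animals. In the fits with group as the term, p-values weigh a difference against the spread between libraries of a group. In the fits with library as a term, p-values weigh it against the variation left after library and cell class. DESeq2 1.42.0, other scalings, filters, gates, a replicate block and each library left out were tried as alternatives.

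The members, lists and tests were chosen with earlier results of these data known. Every member was tested in every comparison, though not every value is printed. For each list the 2 called genes of largest change in each direction could be named. The lists covered inner membrane partners, the LINC complex, lamin processing, the nuclear pore (*Nup58* was not found), sterol synthesis and the cell cycle. The planned split of GBCs by cell cycle left too few cells, so INPs were split instead. In simulated data, where 200 genes were changed, the mOSN swap test recovered 2 of 50 genes changed 2-fold and 27 of 50 changed 4-fold, with 22 false calls among 12789 genes. The test of mOSNs against GBCs recovered 41 of 50 changed 2-fold, with 7 false calls among 12144 genes.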

Additional observations from a re-analysis of the deposited data

How the results depend on the processing

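Each comparison was repeated under the alternatives named in the methods. Of 1970 values of single genes, 1915 kept their side of the threshold with no called value changing direction, 21 lost a call, 31 gained one and 3 reversed. The reversed values were *Lmnb1* (1.70) and *Tmpo* (0.11) from INPs to early iOSNs with cells outside the cycle only, and *Lmna* (0.080) from GBCs to mOSNs without gland transcripts; these cell choices were made after seeing the data, the last one picks out *Lmna*-rich cells, and the cause was not tested. Within these counts, 132 values that were not called changed sign, 88 of them in the swap comparisons. Between GBCs and INPs 1 member in place of 2 was called by DESeq2, without the library term, and without gland transcripts. From early to late iOSNs 1 member in place of 0 was called with swap and control libraries only. Against sustentacular cells 3 in place of 5 were called when cells of several gates were kept. From GBCs to mOSNs between 6 and 9 were called in place of 7.

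With 1 library left out, members called ranged from 1 to 3 between GBCs and INPs (1 without swap 1) and from 0 to 1 between early and late iOSNs (*Lmnb1*, -0.60, without tetOP2). *Lmna* from GBCs to mOSNs was not called without swap 1, and *Lmnb2* was not called without gg8tTA. At that comparison *Lemd3* was called higher without control 1, swap 1, swap 2, gg8tTA or tetOP2, and *Lemd2* without tetOP2. Between cycling and other INPs *Lmna* was called lower without control 1 (-0.78). In the 7 swap comparisons 0 members were called under any alternative. With the replicate number as a block, 0 members were called in any class, while the genes called were 0 in mOSNs, 59 in late iOSNs, 53 in early iOSNs, 2 in INPs, 95 in GBCs, 73 in HBCs and 26 in sustentacular cells, against 0, 14, 3, 3, 0, 2 and 2 without it. The difference of replicate 1 from replicate 2 was taken within the swap group and within the control group. Over genes these 2 differences correlated at r between 0.27 and 0.53 in the 7 classes. With 2 pairs the numbers are not shown to pair the samples. DESeq2 called 195 genes in mOSNs and 50, 19, 4, 6, 9 and 40 in the other classes, in that order.

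Of the lineage stages, GBCs had the fewest cells, 19 to 63 per library, and the swap tests had 2 libraries a group; in simulated data they recovered 2 of 50 changes of 2-fold in mOSNs.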
